A study of Homo sapiens with 4 samples.

Results

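The genes described here are 42 genes of G2 phase and mitosis: the mitotic kinases and cyclins, the kinesins, the kinetochore and spindle checkpoint genes, and the regulators and effectors transcribed with them. They were chosen by name from a table of RPKM values (reads scaled to exon length and library size) holding 25609 genes, by pairing its versioned Ensembl identifiers with symbols, and all 42 were found. RNA was measured in 4 libraries of HK-2 cells, a human kidney proximal tubule line immortalised with papillomavirus E6 and E7 genes, with the genotype given as WT. The 2 control and the 2 TGF-β1 libraries came from cells grown in medium with 10% fetal bovine serum and then kept without serum for 24 h. The TGF-β1 cells received the cytokine at 20 ng/mL for 24 h, and 100 μM 4SU (4-thiouridine, a uridine analogue that is built into new RNA) was in the medium over the last 20 h. One protocol text covers all 4 libraries, so the controls are taken here to differ in TGF-β1 alone. The comparison asks how the transcripts of these tubular cells respond to the cytokine. The labels do not say whether the 2 libraries of a group came from separate cultures, so the p-values here refer to variation among these 4 libraries, which may be technical.

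Entry into mitosis is driven by the kinase CDK1 with its cyclins, and the Polo and Aurora kinases then act on centrosomes, kinetochores and the spindle. The spindle checkpoint holds the anaphase-promoting complex (APC/C), a ubiquitin ligase, in check until every chromosome is attached to microtubules, after which cyclin B is destroyed and the cell divides. Transcripts of these genes build up together in G2 phase, through the CCAAT-binding factor NF-Y and the MuvB complex, which with B-MYB and FOXM1 activates them and with RB-related proteins, as the DREAM complex, represses them in resting cells. TGF-β is known to hold many epithelial cells in G1 phase, in part through inhibitors of the CDKs.

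PLK1, cyclin B1, Aurora B and 3 further genes of late G2 had higher transcript levels with TGF-β1, while the family as a whole was split. By limma on log2(RPKM + 0.5), with p-values adjusted over all 16590 genes tested, 6 of the 42 genes rose and 0 fell at an adjusted p below 0.05. Over all genes tested, 6.12% rose and 3% fell. The 6 were PLK1 (log2 fold change 0.48), CCNB1 (0.45), KIF22 (0.44), AURKB (0.40), UBE2C (0.33) and BIRC5 (0.31), so the rises spanned 1.24-fold to 1.40-fold as ratios of mean RPKM. Before adjustment, 12 genes were higher and 3 lower at p below 0.05, the lower ones being ECT2 (log2 fold change -0.71), NUF2 (-0.34) and CCNA2 (-0.27). The median log2 fold change of the 42 genes was 0.10, against 0.03 over all genes tested, but it was -0.08 after scaling by total recovered reads and -0.04 after quantile normalisation. In RNA from a whole culture, a change in the share of cells in G2 and mitosis and a change of a transcript in each cell cannot be told apart.

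**Figure D1:**
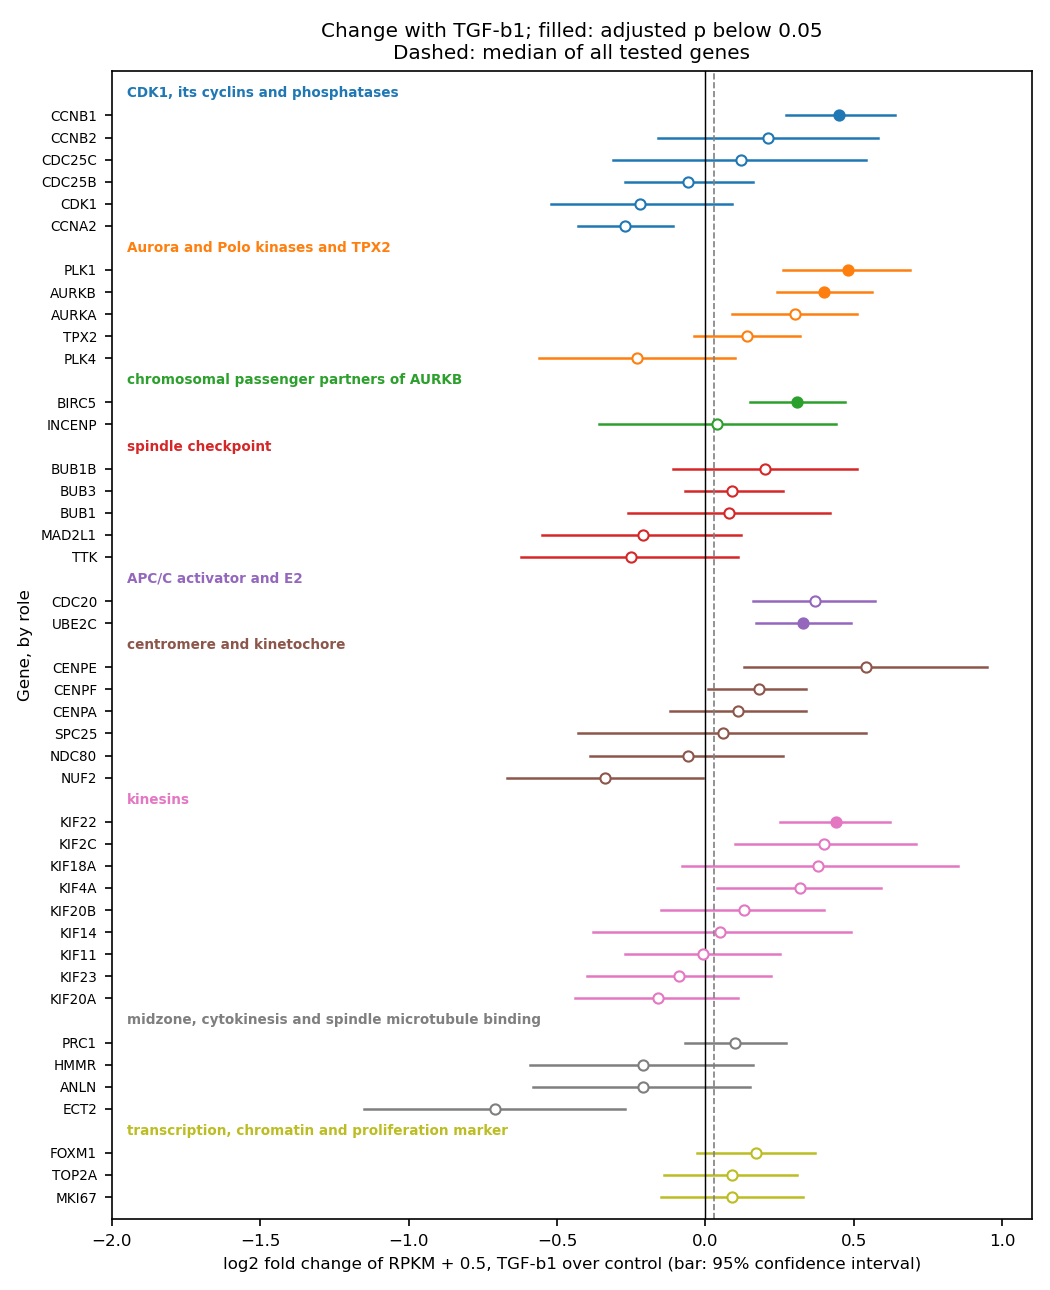
Log2 fold change of RPKM + 0.5, TGF-β1 over control, of the 42 genes grouped by role, with the 95% confidence interval of the limma fit as bars (2 libraries per group). Filled points, at 0.31 to 0.48, mark the 6 genes with an adjusted p below 0.05, and the dashed line marks the median of all tested genes at 0.03.

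The calls rest on small differences and few libraries. They were sensitive to the choice of scaling. Multiplied by exon length, the RPKM values give back whole reads, and the library sizes implied by the deposited values are 1.02, 0.979, 0.896 and 0.864 times the recovered reads in the order control 1, control 2, TGF-β1 1 and TGF-β1 2. Scaled by total recovered reads, the median of all genes moved from 0.03 to -0.13, and 1 gene of the 42 rose (CCNB1) while 2 fell (CCNA2 and ECT2). Leaving out control replicate 1 left 2 rises (AURKB and KIF22) and 1 fall (ECT2), leaving out control replicate 2 left 2 rises (CCNB1 and PLK1) and no fall, and leaving out either TGF-β1 replicate left no call. With limma's voom on the recovered reads, an analysis added after the data were seen, 11 genes rose and 2 fell (ECT2 and CCNA2).

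Recovered reads came to 3337671 and 4803003 in the controls and to 4640185 and 5453207 with TGF-β1, and the 42 genes had 28 to 7213 reads each per library. The TGF-β1 targets SMAD7, SKIL, PMEPA1 and JUNB rose, by 1.16 to 3.73 on the log2 scale. Of the proximal tubule markers, PAX8, DPP4, GGT1, KRT8, KRT18 and CDH6 had 166 reads or more in every library, while ANPEP, CUBN and AQP1 had 1 to 5 reads. For LRP2 no value was found under its symbol. A transcription factor and some surface enzymes of the proximal tubule were thus present, as were keratins. Its endocytic receptor cubilin, its water channel and aminopeptidase N were nearly absent. With TGF-β1, PAX8 (log2 fold change -1.50) and DPP4 (-0.80) fell and KRT8 (1.19) and KRT18 (0.43) rose. Of 6 endothelial markers, VWF and CDH5 had 0 reads in all 4 libraries, and of 6 leukocyte markers CD14 had 5 to 13 reads, CD68 1 to 4 and LYZ 0 or 1. Of 6 fibroblast and pericyte markers, LUM had 95 to 182 reads, RGS5 20 to 67, and PDGFRB, DCN and THY1 7 or fewer. For the other markers of these 3 lists no values were found under their symbols.

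The 42 genes were all measurable in the control cells, which had been kept without serum. The 42 genes together took 0.663% and 0.645% of the recovered reads in the controls against 0.640% and 0.650% with TGF-β1. That share did not separate the groups: the second TGF-β1 library lay between the controls. A share of recovered reads amounts to total read scaling. Under that scaling the median log2 fold change was -0.08 for the 42 genes and -0.13 over all genes tested. MKI67, which encodes the proliferation marker Ki-67, took 0.149% and 0.125% of the reads in the controls against 0.125% and 0.132% with TGF-β1. By mean RPKM over the 4 libraries UBE2C stood highest, at the 99.2th percentile of all tested genes, followed by CDC20, AURKB and TPX2 above the 98th, and KIF18A and KIF14 lowest, at percentiles of 48.1 and 50.03.

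**Figure D2:**
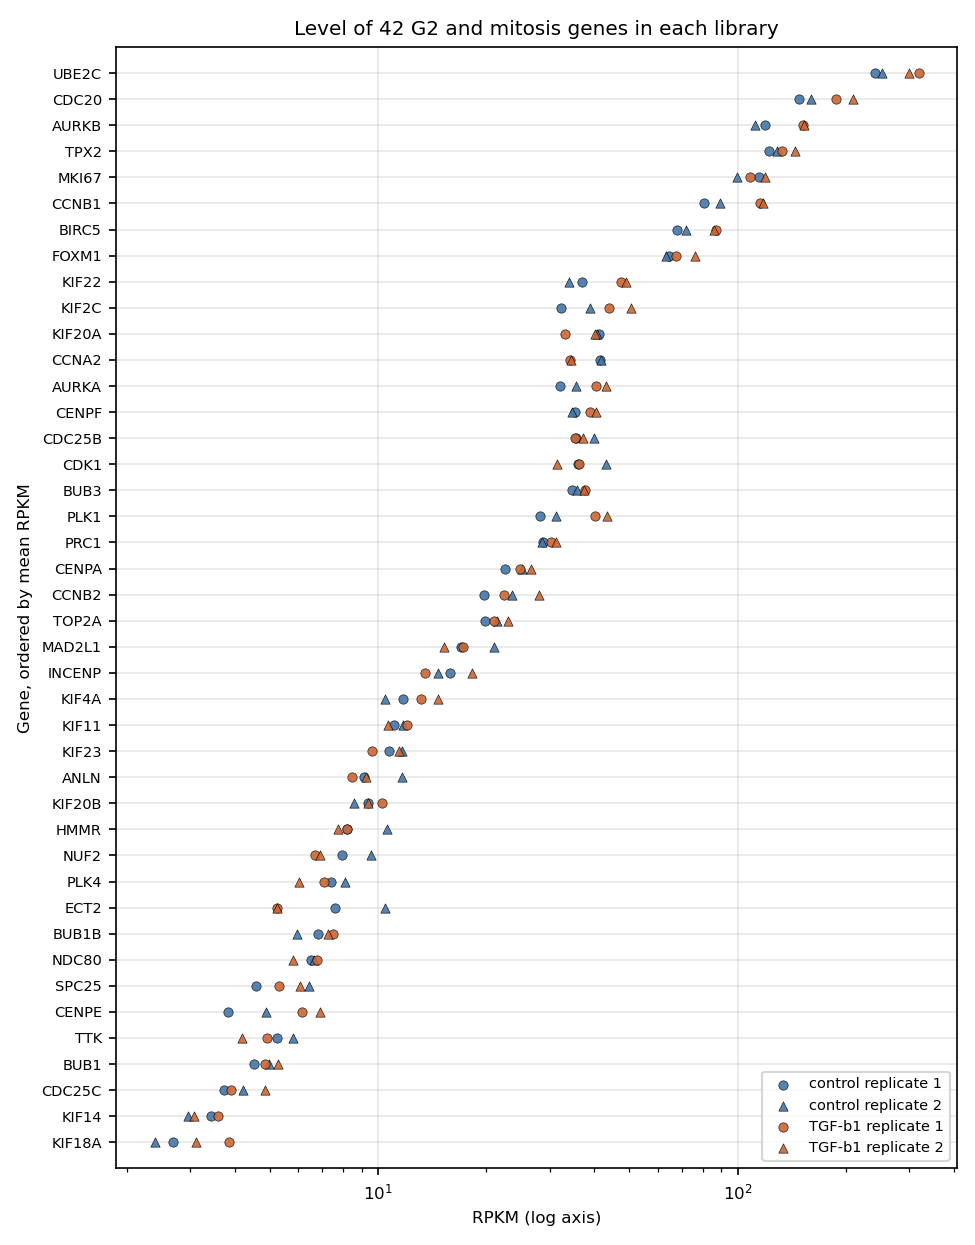
RPKM (log axis) of each of the 42 genes in the 4 libraries, ordered by mean RPKM, with controls in blue, TGF-β1 in orange, circles for replicate 1 and triangles for replicate 2. Levels run from 2.39 RPKM (KIF18A, control replicate 2) to 319 RPKM (UBE2C, TGF-β1 replicate 1), and within most genes the 4 points lie close together on this scale.

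Replicates of these genes agreed closely in most cases. The SD of a gene's 2 libraries had a median of 7.01% of the mean in controls (0.576% to 23.8%) and 6.37% with TGF-β1 (0.0556% to 21.2%). SPC25 varied most between the controls and INCENP between the TGF-β1 libraries. Both TGF-β1 libraries lay above both controls for 19 genes and below both for 6. Over all genes tested, 29.5% lay above and 24.6% below in this way. An exact two-sided permutation test of a single gene with 2 libraries against 2 cannot go below 1 in 3, which is why only the fit across all genes was used for calls.

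The promoters of these genes share the elements that G2 transcription is known for, which is why the stretch before the start of transcription is shown for 7 of them. Windows from 250 bases before to 50 bases after RefSeq starts (GRCh38.p14) were found for 35 of the 42 genes. The windows were searched on both strands for the letters TTTGAA, the cell cycle genes homology region (CHR) to which MuvB is known to bind. A variant of it, spelled TTCGAA, was searched as well, and so was the NF-Y box, which is spelled CCAAT. None of these words contains another. AURKA, BUB3, TTK, TPX2, BIRC5, UBE2C and FOXM1 had no window in the table. The 120 bases before the start are printed 5′ to 3′ on the strand of the gene, with every match to these words, on either strand, in capitals. PLK1 (chr16:23678769-23678888, plus strand) and CCNB2 (chr15:59105026-59105145, plus strand) show the textbook arrangement of NF-Y boxes followed by a CHR, and CDC20 (chr1:43358861-43358980, plus strand) has a CHR between NF-Y boxes. KIF22 (chr16:29790631-29790750, plus strand) carries the variant. CCNB1 (chr5:69167030-69167149, plus strand) and CCNA2 (chr4:121823884-121824003, minus strand) are shown because their log2 fold changes had opposite signs (CCNA2 did not pass the test), and ECT2 (chr3:172750606-172750725, plus strand) because it was the lowest of the 42 genes relative to control.
PLK1: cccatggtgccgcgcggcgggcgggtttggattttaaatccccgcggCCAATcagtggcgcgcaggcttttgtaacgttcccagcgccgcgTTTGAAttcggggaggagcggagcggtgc
CCNB2: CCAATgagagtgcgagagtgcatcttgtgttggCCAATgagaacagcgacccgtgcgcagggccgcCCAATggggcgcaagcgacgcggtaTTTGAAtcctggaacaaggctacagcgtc
CDC20: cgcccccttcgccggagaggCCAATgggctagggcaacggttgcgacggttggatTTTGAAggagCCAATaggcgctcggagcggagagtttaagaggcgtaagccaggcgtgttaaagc
KIF22: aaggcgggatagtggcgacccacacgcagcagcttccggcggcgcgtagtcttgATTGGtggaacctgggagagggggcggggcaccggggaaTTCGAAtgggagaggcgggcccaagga
CCNB1: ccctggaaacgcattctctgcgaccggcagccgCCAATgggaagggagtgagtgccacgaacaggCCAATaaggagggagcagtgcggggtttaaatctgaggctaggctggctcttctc
CCNA2: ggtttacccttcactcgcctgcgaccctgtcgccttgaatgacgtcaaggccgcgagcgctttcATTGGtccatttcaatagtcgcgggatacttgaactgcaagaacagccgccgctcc
ECT2: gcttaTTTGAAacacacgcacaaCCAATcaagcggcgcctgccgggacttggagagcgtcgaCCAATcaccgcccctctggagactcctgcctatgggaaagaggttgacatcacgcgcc

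Within the printed bases, the NF-Y box of PLK1 began at position -73 from the start and its CHR at -29, and the NF-Y boxes of CCNB2 began at -120, -87 and -54 and a CHR, again, at -29. CCNB1 has NF-Y boxes at -87 and -55 and CCNA2 has an NF-Y box at -56, and neither window holds TTTGAA or TTCGAA. A CHR spelled otherwise would be missed by this search, so these genes cannot be said to lack one. The printed bases of ECT2 hold a CHR at -115, ahead of NF-Y boxes at -97 and -58, and its whole window holds 2 CHR forms and 3 NF-Y boxes. Among the 35 genes, 26 (74.3%) had TTTGAA in a window, against 18.2% of 27305 genes in the promoter table and 1 of 32 genes of a list of S phase and replication genes. The variant TTCGAA was found in 4 genes (11.4%, against 1.82% of all genes). CCAAT was found in 29 (82.9%), against 39.7% of all genes and 22 (68.8%) of the S phase genes. A CHR form together with CCAAT occurred in 24 (68.6%), against 7.85% of all genes. A match is a description of letters in this window, not a binding site.

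The elements also lay at like positions. Of the 28 genes with a single window, 18 (64.3%) had a CHR form that began between -60 and 20, against 4.54% of 22114 genes and 0 of 25 S phase genes. A CCAAT box began between -110 and -40 in 19 (67.9%), against 16.8% of all genes and 9 (36.0%) of the S phase genes. These bounds were chosen after the positions were seen. Genes with a CHR form were found among higher and lower genes: PLK1, which rose, carries one, and so do ECT2 and NUF2, which had the lowest log2 fold changes. CENPE, which had the most positive log2 fold change (0.54), had no match to the searched words in its window. The RefSeq start used lay 1233 bases from the gene's start in the GENCODE annotation for PLK1, 21767 for CENPA, 22941 for SPC25 and 55378 for NUF2. CCNB1, which rose, had NF-Y boxes and neither TTTGAA nor TTCGAA in its window, and other spellings of a CHR were not searched.

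**Figure D3:**
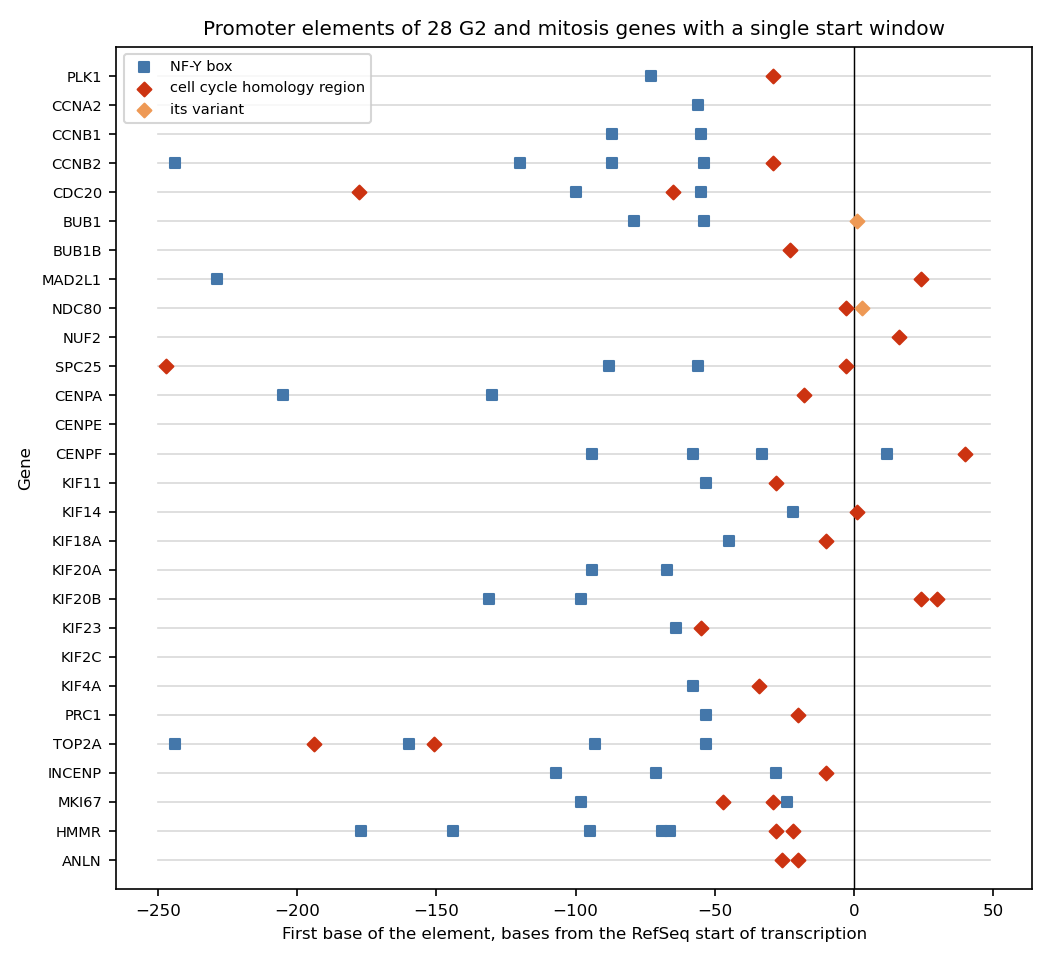
First base of each NF-Y box (squares) and each CHR form (diamonds) relative to the RefSeq start of transcription, in bases, for the 28 genes with a single window. Most boxes gather between -110 and -40 and most CHR forms between -60 and 20, and CENPE and KIF2C have no match to the searched words in the window.

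Of CDK1, its cyclins and its phosphatases, 1 of 6 genes rose, CCNB1, and 0 fell (1 higher, CCNB1, and 1 lower, CCNA2, at an unadjusted p below 0.05 and by voom). CCNB1 (ENSG00000134057.14, chr5:69167010-69178245), which encodes cyclin B1, the partner with which CDK1 starts mitosis, measured 80.9 and 89.4 RPKM in the controls and 115.6 and 117.8 RPKM with TGF-β1. Both TGF-β1 libraries lay well above both controls, and CCNB1 rose 1.37-fold (log2 fold change 0.45, SE 0.07, limma adjusted p = 0.0249). CCNA2 (ENSG00000145386.9, chr4:121816444-121823933), which encodes cyclin A2, acting in S phase and G2, measured 41.4 and 41.7 RPKM in the controls and 34.1 and 34.5 RPKM with TGF-β1. The replicates of CCNA2 nearly coincided in both groups and the groups did not overlap, but the gene missed the threshold (log2 fold change -0.27, SE 0.06, limma adjusted p = 0.0629). It passed it, as a fall, under total read scaling (-0.45), quantile normalisation (-0.43), median-of-ratios scaling (-0.32) and voom (-0.28), with adjusted p from 0.0167 to 0.262 over 14 alternatives.

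CDK1 itself, the catalytic subunit, measured 36.0 and 43.1 RPKM in the controls and 36.3 and 31.5 RPKM with TGF-β1. The first library of each group was nearly equal and the groups overlapped (log2 fold change -0.22, 95% confidence interval -0.52 to 0.09). CCNB2, the gene of cyclin B2, also overlapped, with 19.7 and 23.7 RPKM against 22.5 and 28.0 RPKM (log2 fold change 0.21, interval -0.16 to 0.58). The phosphatase genes CDC25B and CDC25C, whose products remove the inhibitory phosphates of CDK1, had log2 fold changes of -0.06 and 0.12 and overlapping groups.

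Ratios within a library do not depend on a single scaling factor for each library, but quantile normalisation can change them. Those given here are from the deposited RPKM and were chosen after the values were seen. The RPKM of CCNB1 was 1.95 and 2.14 times that of CCNA2 in the controls and 3.39 and 3.41 times with TGF-β1. Against CDK1 it was 2.25 and 2.08 times in the controls and 3.18 and 3.74 times with TGF-β1. Cyclin B1 transcripts thus gained on those of cyclin A2 and of CDK1 in both TGF-β1 libraries.

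**Figure D4:**
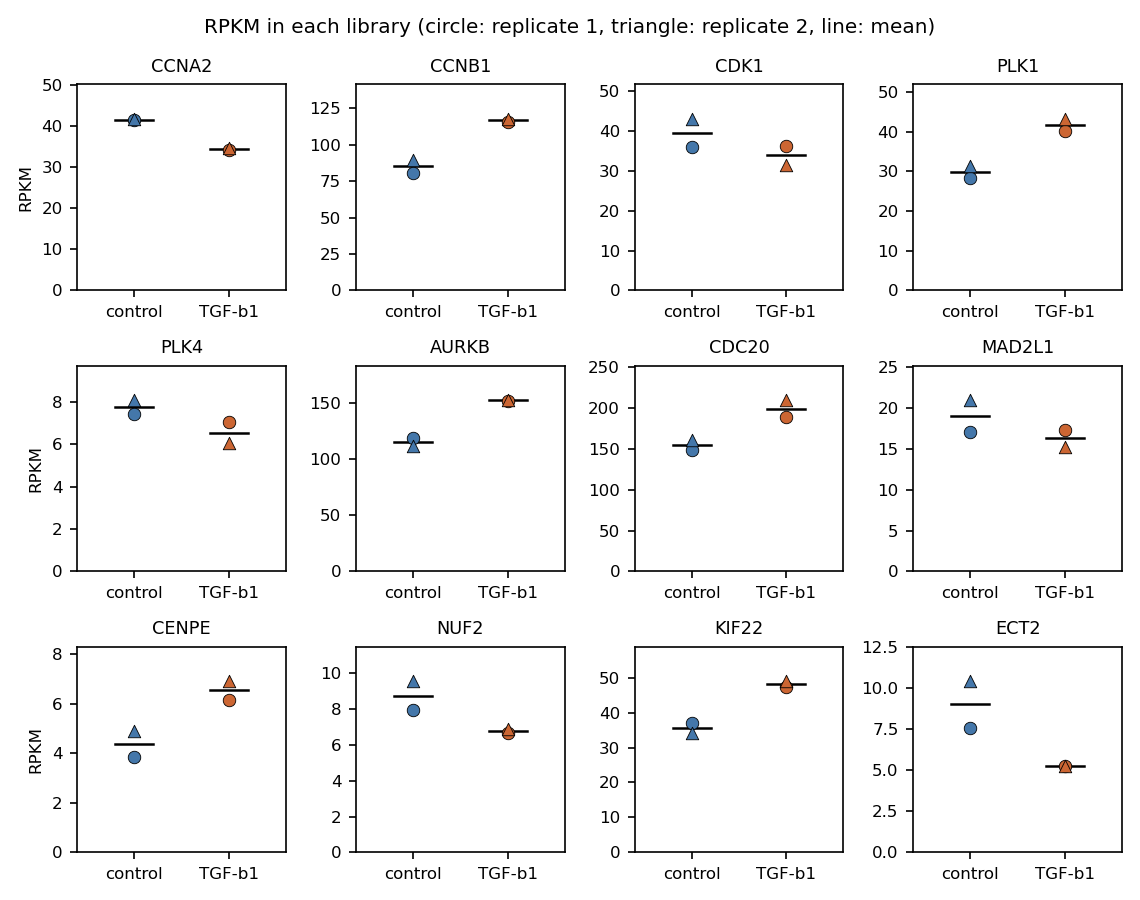
RPKM of 12 of the genes in each library, with circles for replicate 1, triangles for replicate 2 and a line at the group mean, on axes that start at 0. CCNB1, PLK1, AURKB, CDC20, CENPE and KIF22 lie higher with TGF-β1, CCNA2, PLK4, NUF2 and ECT2 lower, and the groups of CDK1 and MAD2L1 overlap.

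Among the Polo and Aurora kinases and TPX2, PLK1 and AURKB rose, and the other 3 genes did not pass. PLK1 (ENSG00000166851.14, chr16:23677656-23690367), the Polo kinase that acts in mitotic entry, spindle assembly and cytokinesis, measured 28.3 and 31.4 RPKM in the controls and 40.2 and 43.3 RPKM with TGF-β1. The gap between the groups was larger than the spread within either, and PLK1 rose 1.40-fold (log2 fold change 0.48, SE 0.08, limma adjusted p = 0.0329). AURKB (ENSG00000178999.12, chr17:8204733-8210600), the kinase of the chromosomal passenger complex that corrects faulty attachments, measured 119.0 and 111.5 RPKM in the controls and 151.7 and 152.6 RPKM with TGF-β1. Again both TGF-β1 libraries were above both controls, and AURKB rose 1.32-fold (log2 fold change 0.40, SE 0.06, limma adjusted p = 0.0235).

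AURKA, the Aurora kinase of centrosomes and spindle poles, measured 32.0 and 35.6 RPKM in the controls and 40.5 and 43.1 RPKM with TGF-β1. The groups did not overlap, but the gene did not pass (log2 fold change 0.30, SE 0.08, limma adjusted p = 0.0967). TPX2, which activates AURKA on spindle microtubules, measured 122.7 and 128.6 RPKM against 132.8 and 144.5 RPKM. That is a log2 fold change of 0.14 without overlap, which turned to -0.04 under total read scaling and -0.13 under quantile normalisation. PLK4, the kinase that starts centriole duplication, measured 7.40 and 8.09 RPKM in the controls and 7.06 and 6.04 RPKM with TGF-β1 (log2 fold change -0.23, interval -0.56 to 0.10). PLK1 transcripts were 3.82 and 3.87 times those of PLK4 in the controls and 5.69 and 7.16 times with TGF-β1.

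Of the partners of AURKB in the chromosomal passenger complex, BIRC5 (ENSG00000089685.14, chr17:78214186-78225636), which encodes survivin, rose 1.24-fold. Its values were 67.7 and 71.7 RPKM in the controls and 87.0 and 85.9 RPKM with TGF-β1 (log2 fold change 0.31, SE 0.06, limma adjusted p = 0.0453). This was the call nearest the threshold, and it was kept under 4 of the 14 alternatives. INCENP, the scaffold of the complex, measured 15.9 and 14.7 RPKM in the controls and 13.5 and 18.3 RPKM with TGF-β1. The TGF-β1 libraries enclosed the controls, so INCENP showed no separation between the groups (log2 fold change 0.04, interval -0.36 to 0.44), and its sign turned under both total read scaling (-0.13) and quantile normalisation (-0.05).

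None of the 5 spindle checkpoint genes passed limma's test (0 at an unadjusted p below 0.05 and 0 by voom), and they did not share a direction. TTK, the kinase MPS1 that starts checkpoint signalling at kinetochores, measured 5.25 and 5.78 RPKM in the controls and 4.91 and 4.20 RPKM with TGF-β1, lower in both libraries (log2 fold change -0.25, limma adjusted p = 0.360). MAD2L1, which encodes the checkpoint protein MAD2, measured 17.0 and 21.0 RPKM against 17.3 and 15.2 RPKM, and the groups overlapped (-0.21, limma adjusted p = 0.396). The kinase gene BUB1B, whose product BUBR1 is a subunit of the inhibitor of the APC/C, measured 6.82 and 5.97 RPKM against 7.499 and 7.283 RPKM (0.20, limma adjusted p = 0.395). The others, BUB3 (0.09) and BUB1 (0.08), had log2 fold changes close to the median of all genes and fell below 0 under total read scaling.

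Of the pair of genes that act directly on the APC/C, UBE2C rose and CDC20 did not pass. UBE2C (ENSG00000175063.16, chr20:45812576-45816957), an E2 enzyme that works with the APC/C, was the most abundant of the 42. It measured 241.4 and 252.1 RPKM in the controls and 319.3 and 300.5 RPKM with TGF-β1. UBE2C rose 1.26-fold (log2 fold change 0.33, SE 0.06, limma adjusted p = 0.0416), but its log2 fold change was -0.04 under quantile normalisation. CDC20, the mitotic activator of the APC/C and the protein that the checkpoint captures, measured 148.0 and 160.4 RPKM in the controls and 188.4 and 209.8 RPKM with TGF-β1. The groups did not overlap, and CDC20 missed the threshold narrowly (log2 fold change 0.37, SE 0.08, limma adjusted p = 0.0575, and 0.000594 to 0.478 over the alternatives). CDC20 transcripts were 8.70 and 7.65 times those of MAD2L1, its checkpoint inhibitor, in the controls and 10.9 and 13.8 times with TGF-β1.

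None of the 6 centromere and kinetochore genes passed limma's test, with 3 at an unadjusted p below 0.05 (CENPE, CENPF and NUF2) and 1 called by voom (CENPE), yet they held the most positive log2 fold change of the 42. CENPE, a kinesin that carries chromosomes towards the spindle equator, measured 3.83 and 4.88 RPKM in the controls and 6.15 and 6.92 RPKM with TGF-β1. The groups did not overlap and the ratio of means was 1.5, but at 122 to 307 reads per library CENPE did not pass (log2 fold change 0.54, SE 0.16, limma adjusted p = 0.115). NUF2, a subunit of the NDC80 complex that grips microtubules, measured 7.94 and 9.59 RPKM in the controls and 6.69 and 6.92 RPKM with TGF-β1 (log2 fold change -0.34, SE 0.13, limma adjusted p = 0.194). Its partners in the same complex did not follow it: NDC80 was at -0.06 and SPC25 at 0.06 with overlapping groups, and SPC25 rested on 28 to 55 reads per library. CENPF, a farnesylated protein of the outer kinetochore, measured 35.2 and 34.8 RPKM against 38.8 and 40.4 RPKM (0.18, limma adjusted p = 0.178, and 0.00 under total read scaling). CENPA, the centromeric histone, was at 0.11 with overlapping groups.

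Of the 9 kinesins in the list, 1 rose and 0 fell (3 and 0 at an unadjusted p below 0.05, and 3 and 0 by voom). KIF22 (ENSG00000079616.12, chr16:29790719-29805385), the chromokinesin Kid that pushes chromosome arms away from the poles, measured 37.0 and 34.1 RPKM in the controls and 47.4 and 49.1 RPKM with TGF-β1. The groups were well apart, and KIF22 rose 1.36-fold (log2 fold change 0.44, SE 0.07, limma adjusted p = 0.0287). KIF2C, the microtubule-depolymerising kinesin MCAK of centromeres, measured 32.4 and 38.8 RPKM against 43.8 and 50.6 RPKM, also without overlap, but did not pass (log2 fold change 0.40, SE 0.12, limma adjusted p = 0.115).

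KIF18A, which shortens kinetochore microtubules, measured 2.69 and 2.39 RPKM in the controls and 3.84 and 3.12 RPKM with TGF-β1 on 42 to 74 reads (0.38, limma adjusted p = 0.276). KIF4A, a chromokinesin of the anaphase midzone, measured 11.7 and 10.4 RPKM against 13.2 and 14.7 RPKM (0.32, limma adjusted p = 0.154). Of the kinesins that act in cytokinesis, KIF20A was at -0.16, KIF23 at -0.09, KIF14 at 0.05 and KIF20B at 0.13, and none passed. KIF11, the motor that separates the spindle poles, was level, at 11.1 and 11.8 RPKM in the controls and 12.0 and 10.7 RPKM with TGF-β1 (log2 fold change -0.01, interval -0.27 to 0.25).

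None of the 4 genes of the midzone and cytokinesis passed limma's test, but they held the most negative value of the 42, that of ECT2, which was also the gene below an unadjusted p of 0.05 and the one called by voom. ECT2 (ENSG00000114346.13, chr3:172750682-172821474), the exchange factor that activates RHOA to form the contractile ring, measured 7.59 and 10.4 RPKM in the controls and 5.23 RPKM in both TGF-β1 libraries. The groups did not overlap, but the controls were far apart, and ECT2 did not pass (log2 fold change -0.71, SE 0.17, interval -1.15 to -0.27, limma adjusted p = 0.0709). Without control replicate 1 it passed at -0.93 (adjusted p = 0.0318), without control replicate 2 it was -0.50 (adjusted p = 0.137), and over all alternatives the adjusted p ran from 0.000135 to 0.183. ANLN, which encodes the ring scaffold anillin, measured 9.15 and 11.6 RPKM against 8.46 and 9.24 RPKM, and HMMR, a spindle microtubule-binding protein, 8.204 and 10.6 RPKM against 8.22 and 7.74 RPKM. Both overlapped between the groups, at a log2 fold change of -0.21. PRC1, which bundles the midzone microtubules, measured 28.9 and 28.5 RPKM against 30.4 and 31.3 RPKM (0.10, and -0.08 under total read scaling).

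The transcription factor FOXM1, which drives many of the other genes in the list, measured 64.4 and 63.1 RPKM in the controls and 67.5 and 76.1 RPKM with TGF-β1. It did not pass (log2 fold change 0.17, SE 0.08, limma adjusted p = 0.276) and stood at -0.01 under total read scaling and -0.06 under quantile normalisation. MKI67 measured 114.5 and 99.5 RPKM against 108.6 and 119.6 RPKM, and TOP2A, the topoisomerase that untangles sister chromatids, 19.8 and 21.4 RPKM against 21.0 and 23.0 RPKM. Both had a log2 fold change of 0.09, overlapping groups, and a negative sign (-0.09) under total read scaling.

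The rises lay among the more abundant of these genes, and in this table the median log2 fold change of all genes also rose with their level. Of the 8 genes with a mean of at least 50 RPKM, 4 rose and the median log2 fold change was 0.32, against 0.21 for all 847 genes at that level (quartiles 0.06 and 0.39). Between 20 and 50 RPKM, 2 of 14 rose and the median was 0.11, against 0.13 for all genes there. From 5 to 20 RPKM, 0 of 16 rose and the median was -0.08, against 0.04, and the 4 genes under 5 RPKM had a median of 0.10, against -0.03. Across the 42 genes, Spearman's rho between log2 fold change and mean RPKM was 0.37, and across all tested genes 0.14, where genes share the same 4 libraries. With exon length, rho was -0.14 among the 42 and -0.06 among all. The share of all genes called at each level was not counted, so the counts of rises by level have no background here. The part of expression level in the rises was not tested.

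**Figure D5:**
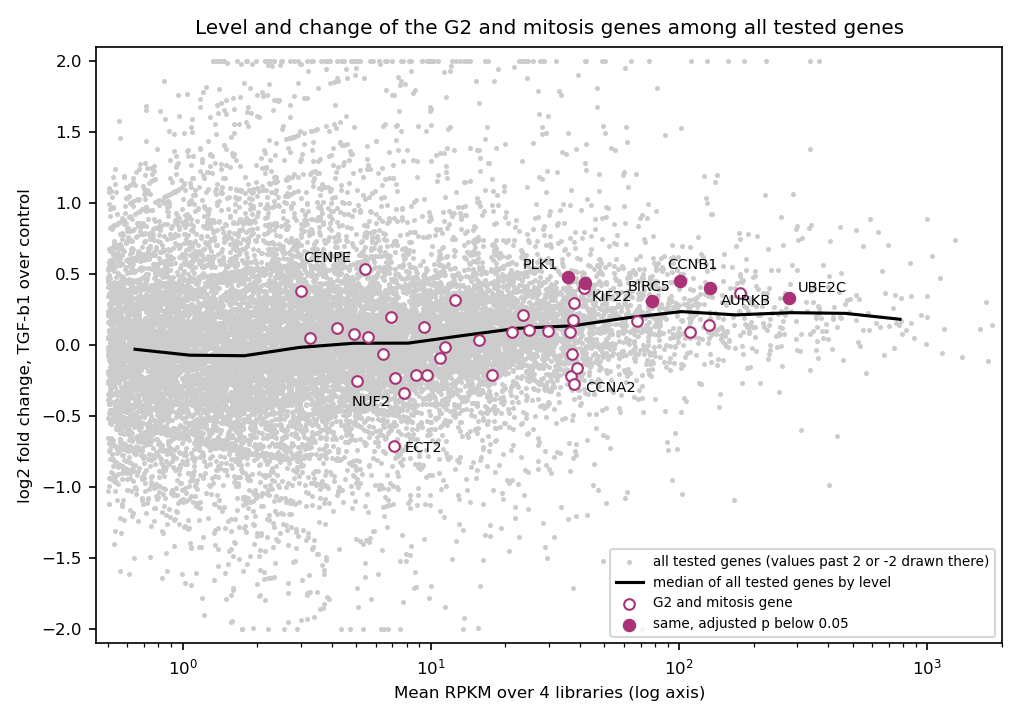
Log2 fold change, TGF-β1 over control, against mean RPKM over the 4 libraries (log axis) for all 16590 tested genes (grey, with values past 2 or -2 drawn there) and for the 42 genes (purple, filled where the adjusted p is below 0.05). The black line is the median of all tested genes by level, and the 6 genes that rose lie above it, at means of 20 RPKM or more.

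Other genes of the same machinery, from lists of further subunits and regulators, did not show a common shift either. Of 30 other centromere and kinetochore genes, 1 rose and 2 fell (median log2 fold change -0.06). CENPW, a histone-fold subunit of the inner kinetochore, rose from 41.0 and 41.4 RPKM to 68.6 and 67.5 RPKM (0.72, limma adjusted p = 0.00490). ZWINT, which links the checkpoint to the outer kinetochore, fell from 164.9 and 162.7 RPKM to 129.5 and 128.5 RPKM (-0.34, limma adjusted p = 0.0252). CENPU, another inner kinetochore subunit, fell from 25.3 and 29.9 RPKM to 19.4 and 17.9 RPKM (-0.55, limma adjusted p = 0.0414). With 1 library left out, 1 of the 30 rose in each case, and 1 fell without control replicate 1 and 0 fell without any of the other libraries.

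Of 16 other APC/C subunits and regulators, 2 rose and 1 fell. The E2 enzyme UBE2S, which extends the ubiquitin chains that UBE2C starts, rose from 107.4 and 100.5 RPKM to 130.4 and 133.3 RPKM (0.34, limma adjusted p = 0.0363). The RING subunit ANAPC11 rose (0.45, limma adjusted p = 0.0441), and the small subunit ANAPC13 fell (-0.79, limma adjusted p = 0.0158). The median of the list was 0.12, and -0.05 under total read scaling, where 0 of the 16 rose. Without control replicate 2 the count of rises was 1, without any other library it was 0, and 1 fell in each case.

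In 4 further lists nothing passed limma's test. Among 8 condensin genes, the smallest p was that of NCAPD3 (-0.36, limma adjusted p = 0.273), and among 12 cohesin genes that of STAG2 (-0.46, limma adjusted p = 0.0734). Among 22 other spindle, centrosome and cytokinesis genes it was that of TACC3 (0.26, limma adjusted p = 0.0952), and among 12 other G2 and mitosis kinases and phosphatases that of PBK (-0.68, limma adjusted p = 0.0578). Medians of these 4 lists ran from -0.09 to 0.00. At an unadjusted p below 0.05 there were 0 condensin, 3 cohesin, 3 spindle and 2 kinase or phosphatase genes, and voom called 0, 2, 2 and 2 of them. Of 12 tested genes of the MuvB, DREAM and MYB regulators, 1 fell: TFDP1, which encodes the E2F partner DP1 (-0.35, limma adjusted p = 0.0354). That call was lost whichever library was left out, and the list's median was -0.20.

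S phase and replication genes are the natural neighbours of this family in the cell cycle. Of 37 such genes, 2 fell, the licensing factor CDT1 and the helicase subunit MCM6 (both -0.37, limma adjusted p = 0.0340 and 0.0386), and 0 rose, with a median of -0.13. Both TGF-β1 libraries lay below both controls for 17 of the 37 and above for 1, against 6 and 19 of the 42 G2 and mitosis genes. Of all genes tested, 24.6% lay below and 29.5% above in this way, and 3% were called lower and 6.12% higher. The list took 0.694% and 0.676% of the recovered reads in the controls against 0.557% and 0.532% with TGF-β1, while the share of the G2 and mitosis genes overlapped between the groups. Under total read scaling 10 of the 37 fell and the median was -0.31, and with either TGF-β1 replicate left out 0 fell (1 with either control left out). Over all 16590 tested genes, total read scaling gave 883 falls and a median of -0.13, and the shares of recovered reads are on that same scale. The difference between the lists was not tested.

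Among the CDK inhibitors and D cyclins, which act ahead of these genes in G1 phase, 3 of 10 rose and 1 fell. CDKN2B, an inhibitor of CDK4 and CDK6 known as a TGF-β target, rose from 3.82 and 2.39 RPKM to 21.9 and 20.7 RPKM (log2 fold change 2.62, limma adjusted p = 0.00447). CCND1, the gene of cyclin D1, rose from 2.96 and 3.37 RPKM to 13.6 and 13.4 RPKM (1.93, limma adjusted p = 0.00280), and CDKN2A rose by 0.76 (limma adjusted p = 0.00369). CDKN1C, which encodes the inhibitor p57, fell from 32.7 and 45.6 RPKM to 21.0 and 20.7 RPKM (-0.87, limma adjusted p = 0.0379), though no fall was called with either TGF-β1 replicate left out.

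Sequence shared with other genes limits some of the values. Of the 50-base words of PRC1 exons, 50.7% also occur on the same strand of another annotated gene, and the shares were 13.7% for KIF4A (mainly KIF4B), 7.68% for CDC20 (CDC20P1) and 7.59% for BUB1B (BUB1B-PAK6). On the opposite strand, 13.5% of the words of FOXM1 lie in another gene (ITFG2), 10.7% of those of KIF22, 10.5% of those of PLK1 and 7.38% of those of CCNA2 (EXOSC9). The libraries were made with a directional kit, but whether reads were counted by strand is not stated in any source used here, so reads from such overlaps cannot be told apart. AURKB, CCNB1, BIRC5 and UBE2C had less than 3% of their words in any other gene on either strand.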

How the data were processed

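Total RNA of 4 HK-2 samples was extracted with TRIzol and sequenced from directional NEBNext libraries, per the labels' protocols. The authors deposited 1 table of RPKM values. Named in the submitters' processing notes, with no role or order, are STAR 2.7.1a, bcl2fastq 2.20.0.422, the build hg38 and DESeq2. No source used here gives the annotation release, the strand setting or any gene filter. Symbols came from a table of gene names (25312 of 25609 identifiers). Coordinates and exon lengths came from GENCODE release 29, where 23853 identifiers (93.1%) had the same version, and 1755 lengths were inferred from the values, those of CDC25C and KIF23 among them. Multiplied by length, the RPKM values gave whole reads, within 0.001 read, for 25608 genes. The recovered reads served for depth, total read scaling and voom.

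RPKM was tested as deposited. After removal of genes with a mean below 0.5 RPKM (leaving 16590 genes, all 42 among them), log2(RPKM + 0.5) was fitted in R 4.3.3 by limma 3.58.1 with a variance trend, 2 residual degrees of freedom and Benjamini-Hochberg adjustment over all tested genes. Log2 fold changes on this scale understate the change of weakly expressed genes. A ratio given as fold is that of mean RPKM. The procedure was run on simulated reads with known changes in some genes. That simulation held no scaling difference between the groups, so it does not bear on how the calls depend on scaling.

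Full values are given for genes with an adjusted p below 0.05 and for the 2 with the largest absolute change in each role group. In each further list, up to 3 called genes with the smallest p are named, or the 1 with the smallest p where none was called. CDKN1C, the fourth called gene of its list, was named after its values were seen. Some genes of the marker lists are not reported here. Other genes of the 42 were given values after these had been seen. The 42 genes, the lists and the tests were chosen with earlier results of these data known. Deviations of same-numbered replicates were nearly uncorrelated (r = 0.026 over all tested genes, and 0.029 over genes with a mean of at least 5 RPKM). The main fit did not pair the samples, but these correlations cannot show whether same-numbered samples were handled as pairs. Alternatives were other pseudocounts (0.1 and 1), filters, scalings, no variance trend, a replicate block, leaving out each library, and voom, which was added after the data were seen.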

Additional observations from a re-analysis of the deposited data

How the results depend on the processing

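The 6 rises and 0 falls among the 42 genes were recounted under 14 alternatives, 13 of them planned. Both pseudocounts left the counts at 6 and 0. Without a filter on low values 3 rose, and under a stricter filter (mean RPKM 2 or more) 7 rose and 1 fell (ECT2, while CDC20 was gained). Scaling by total recovered reads gave 1 rise and 2 falls, median-of-ratios scaling 5 and 1, and quantile normalisation 0 and 1. Without the variance trend 0 rose and 0 fell (7 and 1 at an unadjusted p below 0.05). Voom on recovered reads gave 11 and 2. Leaving out 1 library at a time gave 0 to 2 rises and 0 to 1 falls. The lone library of a group is then assumed to vary like the other group, and the cause of the lost calls was not tested.

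With the replicate block 7 rose and 0 fell: CDC20 (adjusted p = 0.0278) and KIF2C (0.0368) were gained and BIRC5 was lost (0.0554).

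Over all tested genes 1015 rose and 498 fell, which became 655 and 883 under total read scaling, 897 and 549 under median-of-ratios scaling, 697 and 687 under quantile normalisation, 680 and 297 without a filter, 280 and 144 without the variance trend, 2006 and 1354 with voom, and 395 to 842 and 179 to 297 with 1 library left out. Of the 37 S phase genes 2 fell, which became 10 under both total read and quantile scaling, 8 with voom, 4 under the stricter filter, and 0 without a filter or a variance trend.

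The sign of the log2 fold change was the same under every alternative for 23 of the 42 genes. The median of the 42 turned to -0.08 under total read scaling and to -0.04 under quantile normalisation. Under total read scaling the sign turned for CDC25C (-0.04), BUB1 (-0.08), BUB3 (-0.08), SPC25 (-0.11), CENPA (-0.07), KIF14 (-0.10), KIF20B (-0.05), TPX2 (-0.04), PRC1 (-0.08), TOP2A (-0.09), INCENP (-0.13), FOXM1 (-0.01) and MKI67 (-0.09), and CENPF came to 0.00. Quantile normalisation turned BUB3 (-0.06), CENPA (-0.03), TPX2 (-0.13), PRC1 (-0.05), TOP2A (-0.05), INCENP (-0.05), UBE2C (-0.04), FOXM1 (-0.06) and MKI67 (-0.14). Leaving out 1 library gave ranges that crossed 0 for SPC25 (-0.17 to 0.28), INCENP (-0.17 to 0.26), MKI67 (-0.01 to 0.19), KIF14 (-0.04 to 0.15), KIF11 (-0.09 to 0.07), KIF23 (-0.21 to 0.03), NDC80 (-0.17 to 0.04), CDC25B (-0.14 to 0.03) and CDC25C (-0.02 to 0.26).

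Of the 6 calls, CCNB1 was kept under 9 of the 14 alternatives, AURKB and KIF22 under 8, PLK1 under 7, UBE2C under 6 and BIRC5 under 4. SPC25 had the fewest reads of the 42 genes, 28 to 55 per library, and a 95% confidence interval of -0.43 to 0.54.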
